A study of Mus musculus with 98 samples.

Results

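PS19 mice that had received an Acss2-carrying virus 1 month earlier were compared with PS19 mice that had received its empty vector. The 10 libraries, 5 with upACSS2 and 5 with vector, were taken by sample title out of 98 libraries in the series. PS19 mice carry a transgene for mutant human tau driven by the mouse Prnp promoter and serve as a model of tau pathology, and every animal of both groups carried that strain label. All 10 were males, injected behind the eye at 2.5 months of age with the capsid PhP.eB, a form of adeno-associated virus that reaches the brain from the blood, at a labelled dose of 1.5 in units of E10 viral genomes. They were killed at 3.5 months of age, 30 minutes after a memory test given 24 hours after contextual fear training. RNA of the hippocampus was sequenced as total RNA libraries. For comparison, 10 PS19 males of the same series had the same viruses for 6 months and were 8.5 to 9 months old. They were injected at the same age and labelled dose, and also killed 30 minutes after a memory test at 24 hours. Their tissue entry was dorsal hippocampus in both groups, and their treatment entries matched their titles. In addition, 11 C57BL6 mice aged 10 months had the viruses for 2 weeks at another labelled dose, 1.2 in units of E11 viral genomes. The strain label of these C57BL6 mice held no tau transgene. The sample entries used here give no time after a memory test for them.

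The labels of the PS19 mice aged 3.5 months conflict, and the conflict bears on each result below that uses these mice. The tissue entry is whole hippocampus for all 5 upACSS2 mice and dorsal hippocampus for all 5 vector mice, and an effect of tissue cannot be told apart from one of virus here. The comparison within the older PS19 mice does not have this difference in tissue label. Any contrast of the younger with the older upACSS2 mice has it, as does the test of the difference between the times. The treatment entry names the vector for all 5 upACSS2 mice and upACSS2 for vector replicate 5, against the titles. The labels do not say that the numbered replicates are separate animals of separate litters, so p-values measure only the spread between these libraries.

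ACSS2 is an enzyme of the cytosol and nucleus that joins acetate to coenzyme A. Its product, acetyl-CoA, is the building block of sterols and fatty acids and the donor for histone acetylation, and in neurons the nuclear enzyme has been linked to memory-related transcription. The Acss2 gene is itself a known target of SREBP2, the transcription factor that switches on cholesterol synthesis when cell sterol is low and is held back by INSIG1 when sterol is plentiful.

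Acss2 lies on the plus strand of chromosome 2 at 155517948 to 155585724 in GRCm38, and its own level checks the labels, since the virus carries it. In the upACSS2 mice it stood at 146, 1190, 318, 60.1 and 1465 CPM (read counts scaled to a common library size, by TMM factors) in replicates 1 to 5. In the vector mice it stood at 66.3, 51.5, 52.8, 51.6 and 53.1 CPM. Replicates 2 and 5 were far above every vector mouse, replicates 3 and 1 were above by less, and replicate 4 lay inside the vector range. Against the vector mean, the upACSS2 mice stood at 2.65, 21.6, 5.77, 1.09 and 26.6 times its level. The mean was 636 ± 646 CPM (SD, n = 5) in the upACSS2 group against 55.1 ± 6.33 CPM (SD, n = 5) in the other, and an exact two-sided permutation test over all splits of the 10 mice gave p = 0.0159, where the smallest possible was 0.00794. The fitted log2 fold change was 3.53 ± 0.64 (SE), with an adjusted p of 0.371 in edgeR's quasi-likelihood test. Without upACSS2 replicate 4 the adjusted p was 0.0144 and the log2 fold change 3.82, and without upACSS2 replicate 1 they were 0.0496 and 3.79. Acss2 was thus above every vector mouse in 4 of 5 libraries titled upACSS2, though their treatment entries name the vector. Vector replicate 5, whose treatment entry names upACSS2, was at 53.1 CPM, inside the range of the other vector mice. The library labelled upACSS2 replicate 4 was inside the vector range too, and is named so below for that reason.

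**Figure D1:**
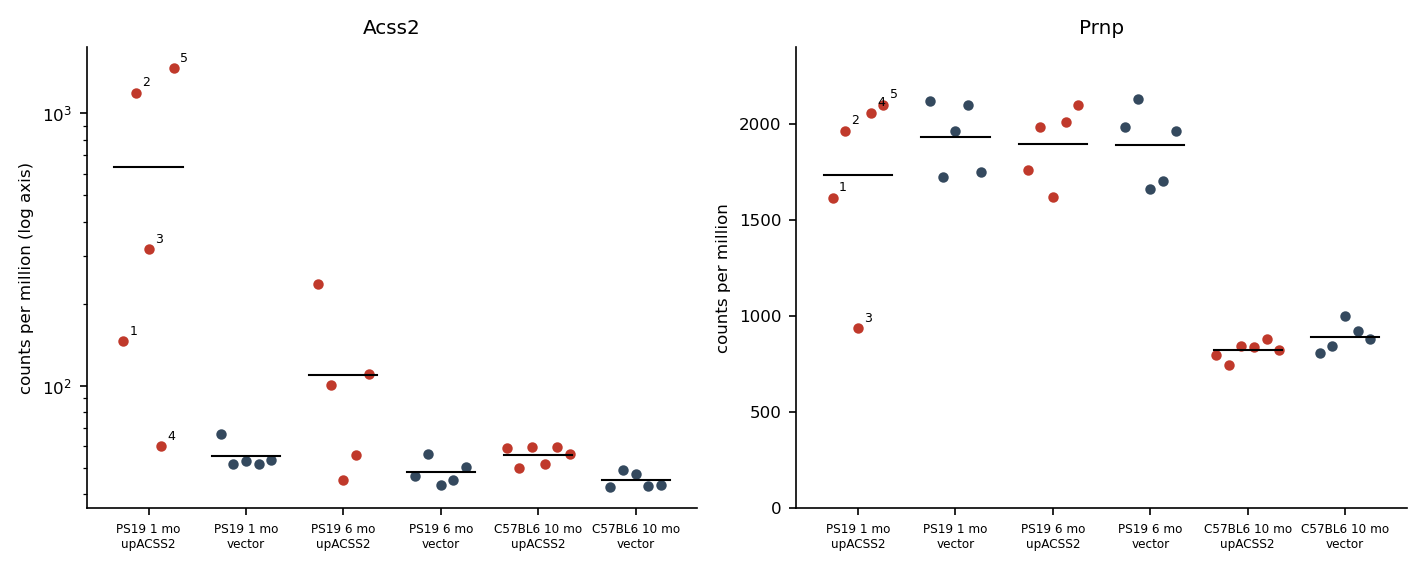
Acss2 (left, log axis) and Prnp (right, linear axis from 0) in CPM for each mouse, with black lines at group means. Numbers mark the 5 PS19 upACSS2 mice at 1 month: Acss2 ran from 60.1 to 1465 among them, and replicate 3 alone had Prnp at 936, near the C57BL6 mice.

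Prnp, the prion protein gene whose promoter drives the transgene, served as a check of the strain label. It was 1616, 1965, 936, 2058 and 2100 CPM in upACSS2 replicates 1 to 5 and 2119, 1722, 1964, 2096 and 1752 CPM in the vector mice. Replicate 3 was the only one of the 20 PS19 libraries outside 1616 to 2128 CPM. The 11 C57BL6 mice, processed in a separate table, ran from 744 to 1001 CPM with a mean of 853, so replicate 3 stood at 1.10 times and the other 19 PS19 libraries on average at 2.24 times that mean. Levels set across the 2 tables were scaled separately. The library labelled PS19 upACSS2 replicate 3 thus went against the other PS19 libraries in this gene, and whether its animal carried the transgene was not tested. Mapt, the mouse gene for tau, gave no such split. It lay at 453 to 565 CPM with upACSS2 and 453 to 604 CPM with vector, with a log2 difference of 0.00 ± 0.10 (SE).

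Total counts ran from 6910945 to 16659630 per library, and no pair of libraries within a group agreed within sampling noise. Vector replicates 4 and 5 stood apart most: of 9783 genes above 10 CPM on average, 113 in replicate 4 and 104 in replicate 5 were above all other libraries by at least 0.5 on the log2 scale, against 0 to 31 in the other 8. Vector replicate 5 held Cd74, the invariant chain of MHC class II in antigen-presenting cells, at 734 CPM, against 1.02 to 178 in the other 9. Vector replicate 4 had the highest summed level of cortical layer markers, 279.9 CPM against 96.0 to 148 in the others. UpACSS2 replicate 4 had the highest summed level of thalamic neuron markers, 570.1 CPM against 80.5 to 143 in the others.

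Across 15850 genes tested, none passed the adjusted threshold of 0.05 in either direction at 1 month (0% higher and 0% lower; edgeR with Benjamini-Hochberg adjustment). At an unadjusted p under 0.05 stood 192 genes higher with upACSS2 (1.21%) and 271 lower (1.71%). The lowest adjusted p was 0.371, for Acss2, and the next was 0.964. DESeq2 called 1 gene, Acss2, at an adjusted p of 0.00018, with 425 genes at an unadjusted p under 0.05. The median standard error of a log2 fold change was 0.14, and in simulated data of this design 79.4% of genes changed 2-fold and 44.4% of genes changed 1.5-fold were recovered (edgeR, 199 and 198 changed genes among 15680 and 15699). Changes smaller than that were mostly not detectable with these libraries. The simulation moved a gene by the same fold in all 5 upACSS2 mice and held no library that stood apart. In the real mice Acss2 itself ran from 1.09 to 26.6 times the vector mean, so the shares recovered may be too high for these libraries. A gene's values below are therefore descriptions unless a call is named.

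The sterol list holds 25 genes of cholesterol synthesis, uptake and their control by SREBP2, of which 24 could be tested. None was called. The fitted difference was above 0 for 22 of 24, with a median log2 fold change of 0.27, against 48.5% of all tested genes and a median of -0.01. The only members below 0 were Pmvk (-0.04 ± 0.11), the phosphomevalonate kinase, and Tm7sf2 (-0.15 ± 0.14), a sterol reductase. Unadjusted p under 0.05 was reached by 3 members, all higher, among them Hsd17b7 and Dhcr7. In a fit without upACSS2 replicate 3 the median was 0.27, without replicate 4 it was 0.32, and without vector replicates 4 and 5 together it was 0.25.

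The search for a sequence feature used the core of the sterol response element to which SREBP2 binds, TCACNCCAC on either strand, in promoter windows from 250 bases before to 50 after each gene's start. In RefSeq's GRCm38.p6 promoters, 17 of 25 sterol genes had a window, and 1 of 17, Hmgcs1, held the motif, against 1.44% of all 27025 genes. Of 15 acetyl-CoA enzyme genes, 12 had a window and 0 held it, nor did Acss2 hold it. Hmgcs1 is shown because it holds the motif (in capitals, plus strand, from base 114 of the window), and Hsd17b7 because its groups did not overlap and it holds none. Both are written in the direction of the gene, Hmgcs1 from chr13:119690101-119690400 on the plus strand and Hsd17b7 from chr1:169969156-169969455 on the minus strand.
Hmgcs1: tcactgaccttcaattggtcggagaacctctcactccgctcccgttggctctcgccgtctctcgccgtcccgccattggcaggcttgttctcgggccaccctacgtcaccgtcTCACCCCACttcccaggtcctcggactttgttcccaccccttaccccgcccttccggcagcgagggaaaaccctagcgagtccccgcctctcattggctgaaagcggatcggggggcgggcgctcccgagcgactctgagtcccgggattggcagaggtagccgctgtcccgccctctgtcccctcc
Hsd17b7: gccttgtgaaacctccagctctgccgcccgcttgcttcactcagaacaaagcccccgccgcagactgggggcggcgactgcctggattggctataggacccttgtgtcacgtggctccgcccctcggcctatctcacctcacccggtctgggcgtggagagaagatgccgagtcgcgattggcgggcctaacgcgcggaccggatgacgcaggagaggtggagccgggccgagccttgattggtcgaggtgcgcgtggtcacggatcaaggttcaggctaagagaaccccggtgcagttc
A match is a description of these letters only, and the windows hold 300 bases of each gene.

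Of the early steps, Hmgcs1 makes the precursor of mevalonate. It stood at 338, 478, 401, 282 and 454 CPM in upACSS2 replicates 1 to 5 and at 354, 277, 367, 316 and 289 CPM in the vector mice. Replicates 2, 5 and 3 were above every vector mouse, and replicates 1 and 4 were inside the vector range, so the groups overlapped (log2 fold change 0.28 ± 0.18, SE). Idi1 (0.39 ± 0.21), Mvd (0.27 ± 0.19) and Mvk (0.09 ± 0.10), of the mevalonate steps, overlapped between the groups.

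Of the later steps, Sqle, the squalene epoxidase, stood at 65.9, 96.0, 73.9, 52.0 and 91.8 CPM with upACSS2 and at 69.1, 46.9, 60.1, 57.9 and 53.7 CPM with vector. Again replicates 2, 5 and 3 were above every vector mouse and replicate 4 was among the lower values (0.40 ± 0.21). Hsd17b7, a ketoreductase of sterol demethylation, had another pattern, with 30.2, 29.3, 29.3, 28.7 and 30.9 CPM against 28.1, 19.9, 26.3, 22.8 and 24.3 CPM. It was the only one of the 24 whose groups did not overlap, at a log2 fold change of 0.29 ± 0.09 and an unadjusted p of 0.00577 (edgeR, adjusted p 0.964). Groups without overlap in the higher direction made up 0.473% of all tested genes. The upACSS2 mice lay within a narrow span for this gene, replicate 4 included, whereas their Acss2 levels differed widely. Fdft1 (0.34 ± 0.21), the squalene synthase, and Dhcr7 (0.25 ± 0.12), Lss (0.26 ± 0.13), Cyp51 (0.24 ± 0.14) and Msmo1 (0.27 ± 0.19), enzymes between squalene and cholesterol, overlapped between the groups.

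Of the uptake and control genes, Stard4, a sterol carrier, stood at 34.99, 57.1, 42.9, 26.6 and 57.6 CPM against 34.2, 25.5, 35.2, 34.9 and 27.0 CPM (0.48 ± 0.24). Replicates 2, 5 and 3 were above every vector mouse, and replicate 1 missed it narrowly. Insig1, which holds SREBP2 in the endoplasmic reticulum, gave 50.7, 83.0, 57.05, 47.5 and 79.4 CPM against 55.4, 42.1, 60.5, 59.3 and 56.5 CPM (0.22 ± 0.16), with only replicates 2 and 5 above the vector range. The gene of SREBP2 itself, Srebf2, differed by 0.23 ± 0.13.

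**Figure D2:**
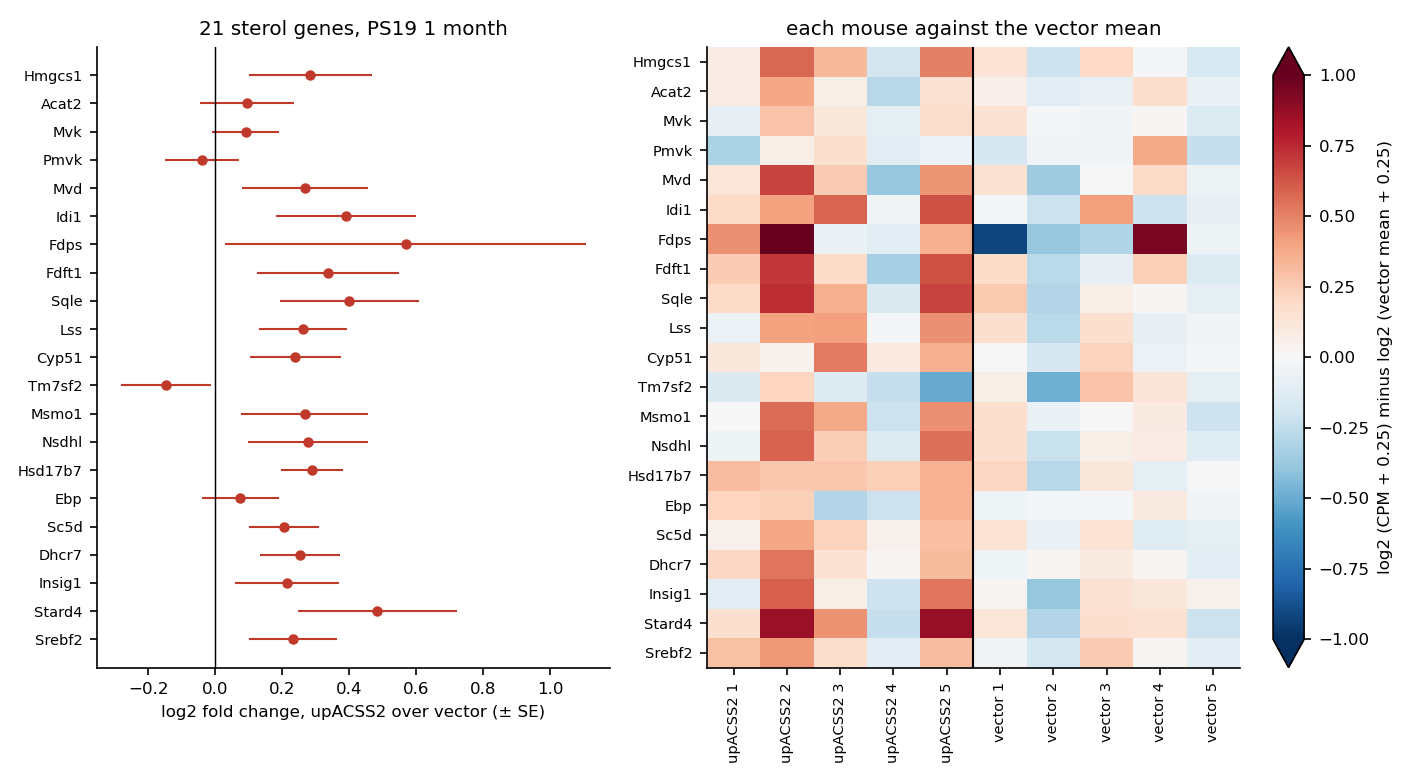
Left, log2 fold change of upACSS2 over vector at 1 month for 21 of the 24 tested sterol genes (points, bars are SE). Right, each mouse's level against the vector mean on the log2 scale (with 0.25 CPM added, color scale cut at 1), where upACSS2 replicates 2 and 5 are high in most rows and replicate 4 is low in most rows.

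Set beside Acss2, the mice differed in how many sterol genes lay above all 5 vector mice. There were 20 of 24 in replicate 5 (Acss2 1465 CPM) and 20 in replicate 2 (1190 CPM). There were 13 in replicate 3 (318 CPM), 7 in replicate 1 (146 CPM) and 1 in replicate 4 (60.1 CPM). The count thus rose with Acss2 from replicate 4 through 1 and 3 to 2, and was the same in replicates 2 and 5. The summed level of the list was higher in replicate 2 (1950 CPM) than in replicate 5 (1835 CPM). Over all tested genes the share above the vector range was 12.7% in replicate 5, 15.6% in replicate 2, 17% in replicate 3, 20.4% in replicate 1 and 14.6% in replicate 4. That share did not follow the order of Acss2. Below every vector mouse lay 1, 0, 1, 5 and 1 of the 24 sterol genes in replicates 1 to 5. The shares of all tested genes below were 21.8%, 15%, 14.9%, 14.4% and 13.8%. With 5 mice no correlation is given, the pattern was seen in these data before it was counted, and the mice also differed in other markers given below.

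**Figure D3:**
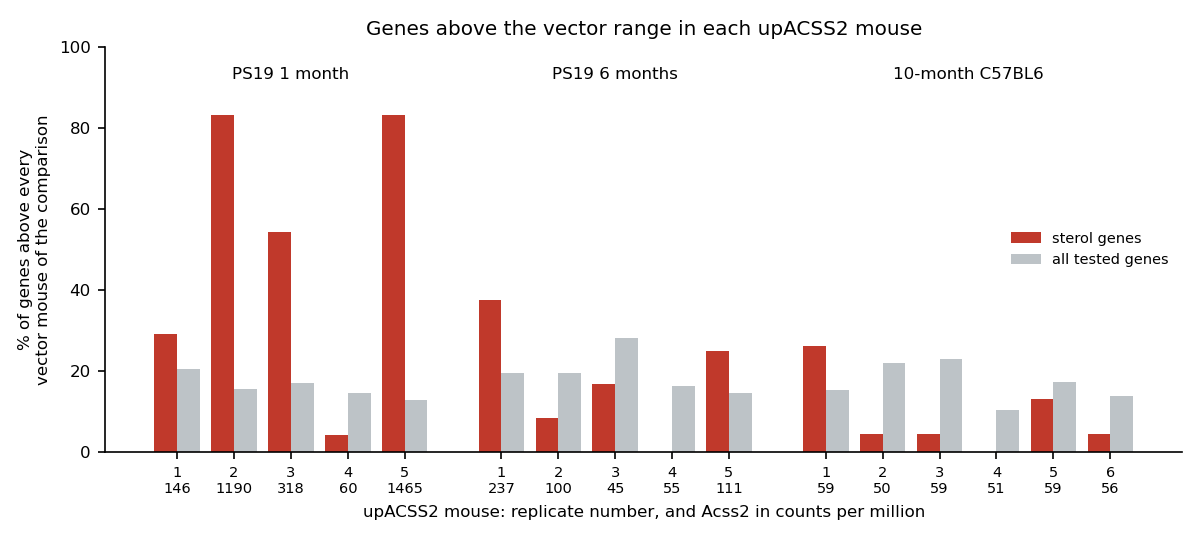
Share of sterol genes (red) and of all tested genes (grey) above every vector mouse of the same comparison, for each upACSS2 mouse, with its replicate number and Acss2 level under the bars. At 1 month the red bars reach 83.3% in replicates 2 and 5 and 4.17% in replicate 4, while the grey bars stay between 12.7% and 20.4%.

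In the PS19 mice at 6 months, Acss2 stood at 237, 100.5, 45.0, 55.4 and 111 CPM in upACSS2 replicates 1 to 5 against 43.1 to 56.0 CPM with vector, and 3 of 5 were above the vector range. The sterol list had 23 of 24 members above 0 with a median of 0.17 (all genes: 48.2% above and 51.8% below 0), and 9, 2, 4, 0 and 6 of 24 lay above the vector range. These are 37.5%, 8.33%, 16.7%, 0% and 25% of the list, against 19.4%, 19.5%, 28%, 16.3% and 14.5% of all genes, so replicates 2, 3 and 4 were below the share of all genes. Under the lowest vector mouse lay 0, 0, 6, 1 and 0 of 24, against 19.4%, 18.9%, 29.9%, 14.4% and 14.2% of all genes. In the 10-month C57BL6 mice, where Acss2 was 49.9 to 59.3 CPM with upACSS2 and 42.3 to 48.9 CPM with vector, the list had 5 of 23 members above 0 and a median of -0.15 (all genes: 48.6% above and 51.4% below 0). Of these 23, 6, 1, 1, 0, 3 and 1 lay above the vector range in upACSS2 replicates 1 to 6. Below the vector range lay 1, 11, 16, 2, 6 and 9. Of all genes, 10.4% to 22.8% lay above it and 13.2% to 22.2% below it. No member was called in either comparison, or in the test of the difference between 1 and 6 months (0% called over all genes in each). Unadjusted p under 0.05 was reached over all genes by 7.67% higher and 6.44% lower at 6 months, by 5.05% higher and 3.79% lower at 10 months, and by 5.62% and 6.73% in the test of the difference.

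The enzymes and carriers that make, move or use acetyl-CoA, Acss2 left out, showed no common direction. Of 15 genes 14 were tested, 7 were above 0, none was called or reached an unadjusted p under 0.05, and the median was -0.00. Acly, which makes acetyl-CoA from citrate in the cytosol, stood at 169, 167, 149, 146 and 161 CPM with upACSS2 and at 151, 133, 142, 140 and 142 CPM with vector (0.16 ± 0.08). Only replicates 1, 2 and 5 were above every vector mouse. Acss1, the mitochondrial relative of Acss2, differed by 0.09 ± 0.13 (-0.05 without upACSS2 replicate 3), and Slc25a1, the citrate carrier that feeds Acly, by -0.13 ± 0.08. Pdha1, a subunit of pyruvate dehydrogenase and the most abundant member, differed by 0.00 ± 0.07.

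The fatty acid list, with the targets of the related factor SREBP1, had 14 of 14 members above 0 with a median of 0.12, and 12 of 14 without upACSS2 replicate 3. None was called. Fasn, the fatty acid synthase, stood at 449.6, 436, 438, 348 and 382 CPM with upACSS2 and at 325, 292, 387, 301 and 318 CPM with vector (0.34 ± 0.15, unadjusted p 0.0347). Replicates 1, 2 and 3 were above every vector mouse, and replicates 4 and 5 lay below the highest vector mouse. The order of the mice was thus not that of Acss2 or of the sterol genes. Acaca, which makes malonyl-CoA from acetyl-CoA, differed by 0.20 ± 0.11, and Scd2, the desaturase most abundant in the list, by 0.16 ± 0.10. At 6 months 7 of 14 were above 0, with a median of -0.03. The list of cholesterol efflux and storage had 7 of 12 above 0 (median 0.03), with Apoe, the main lipid carrier of the brain, at -0.09 ± 0.19.

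Histone acetyltransferases and coactivators, which use acetyl-CoA, had 11 of 15 members above 0 with a median of 0.10 and none called. Ncoa3, a nuclear receptor coactivator, stood at 41.9, 39.7, 36.5, 38.1 and 40.9 CPM with upACSS2 and at 29.2, 28.0, 36.1, 28.0 and 39.8 CPM with vector (0.29 ± 0.12, unadjusted p 0.0236). Vector replicates 3 and 5 reached or neared the upACSS2 values, and the other 3 were below all of them. Histone deacetylases and sirtuins had 9 of 18 above 0 (median -0.01), and the lowest unadjusted p was that of Sirt4, a mitochondrial sirtuin, at -0.32 ± 0.15.

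For memory-related transcription, immediate early genes, which neurons switch on within minutes of activity, had 11 of 20 above 0 with a median of 0.03 and none with an unadjusted p under 0.05. Arc, a synaptic gene induced by learning, stood at 425, 261, 359, 212 and 507 CPM with upACSS2 and at 240.3, 334, 279, 287 and 260.2 CPM with vector (0.33 ± 0.22). Replicates 1, 3 and 5 were above every vector mouse, replicate 4 was below, and replicate 2 was within. Effectors induced later had 8 of 17 above 0 (median -0.02). Glutamate receptors and their scaffolds had 20 of 20 above 0 with a median of 0.18, and none reached an unadjusted p under 0.05. Camk2a, a kinase of the postsynaptic density, stood at 5777, 4970, 7683, 4281 and 4831 CPM against 4778, 5189, 5654, 3637 and 4363 CPM (0.22 ± 0.20), with replicate 3 far above the rest. Without replicate 3 the difference of Camk2a was 0.07, and the list's median was 0.11, a fall of over 1.5 times. Without vector replicates 4 and 5 together it was 0.10.

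Transcripts of this postsynaptic list are long (median exon length 9780 bases), and length moved with the comparison. With genes split by exon length into 5 sets of like size, the median log2 fold change ran from -0.08 in the shortest through -0.03, -0.00 and 0.02 to 0.06 in the longest, with 31.2% of the shortest and 67.4% of the longest genes above 0. At 6 months it ran the other way, from 0.12 to -0.10. Histone acetyltransferases and coactivators (8558 bases) and the list of tau kinases and microtubule proteins (7510.5 bases) also have long transcripts. Their median lengths lie between that of the longest set (9756 bases) and that of the set next to it (6041.5 bases). In those sets 67.41% and 56.65% of genes were above 0. The sterol list has a median exon length of 4409 bases, near that of the middle set (4280), where the median difference was -0.00. The part of length in any list's difference was not tested.

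The circadian clock list had 12 of 14 members above 0 with a median of 0.24, and its medians were 0.19 to 0.27 in all alternatives run. Nr1d2, a repressor of the clock loop, was the only member without overlap (0.22 ± 0.12), with 85.7, 85.1, 101, 94.5 and 92.8 CPM against 84.8, 80.8, 77.2, 72.7 and 80.1 CPM. Its upACSS2 replicate 2 (85.1) was barely above vector replicate 1 (84.8). Over all tested genes, 0.473% were higher without overlap. Nr1d2 was chosen after its values were seen. Per3 (0.31 ± 0.15) and Dbp (0.30 ± 0.16), a period gene and an output gene of the clock, overlapped between the groups. The hour at which each animal was killed is not given in the sources used here.

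Markers of the tissue were compared because the tissue labels differ. Genes higher in dorsal than ventral hippocampus were above 0 in 3 of 3 cases in the mice labelled as whole hippocampus, with a median of 0.47. Lct, one of them, was at 81.1, 97.7, 43.6, 53.1 and 109 CPM with upACSS2 and at 49.5, 58.8, 76.0, 34.6 and 59.0 CPM with vector (0.47 ± 0.38), and the groups overlapped. Genes higher in ventral hippocampus had 5 of 12 above 0 with a median of -0.03. Markers of CA1 pyramidal neurons had 5 of 5 above 0 with a median of 0.41, among them Pou3f1 at 0.46 ± 0.27. None of these genes reached an unadjusted p under 0.05. Wfs1 is a member of both the dorsal and the CA1 list, so their counts are not separate. The dorsal list had 2 of 3 above 0 without upACSS2 replicate 3, without vector replicate 4 and without vector replicate 5. Its member Spink8, at 0.02, changed sign in 8 settings. The dorsal median was 0.31 without upACSS2 replicate 5, and the ventral median ran from -0.16 to 0.14 when single libraries were left out. The part of the tissue label in these values was not tested.

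Neighbouring tissue varied between mice. Thalamic markers had 8 of 8 members above 0 with a median of 1.03, and without upACSS2 replicate 4 the median was -0.09. Prkcd, a kinase of thalamic relay neurons, stood at 66.7, 79.5, 23.3, 202 and 28.1 CPM with upACSS2 and at 33.5, 53.2, 76.4, 32.8 and 71.2 CPM with vector, so replicate 4 alone was above the vector range by much. Choroid plexus markers had 13 of 13 above 0 with a median of 0.75, which was 0.24 without upACSS2 replicate 1 and 1.48 without vector replicate 4. Ttr, the transthyretin of that epithelium, stood at 1234, 703, 48.1, 75.1 and 814 CPM against 115, 322, 154, 785.5 and 92.2 CPM. UpACSS2 replicates 1, 5 and 2 and vector replicate 4 were high, and the others were low. In bulk tissue, more cells of a type and more RNA per cell cannot be told apart.

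The choroid plexus summed level was 1496, 819.5, 91.3, 128 and 967 CPM in upACSS2 replicates 1 to 5. Replicates 2 and 5, high in the sterol genes, were thus also high here. So was replicate 1, which had 7 of 24 sterol genes above the vector range. The part of choroid plexus tissue in the sterol values was not tested. Markers of myelinating oligodendrocytes, cells known for heavy cholesterol synthesis, were below 0 in 13 of 13 cases with a median of -0.19. The median was -0.07 without vector replicate 2 and -0.11 without upACSS2 replicate 1, and 2 of 13 were above 0 without upACSS2 replicate 3. Mbp, a myelin protein gene, stood at 1720, 1766, 2182, 3161 and 2636 CPM against 2696, 3300, 3199, 1921 and 2079 CPM (-0.20 ± 0.23). Replicate 4, lowest in most sterol genes, was the highest of the upACSS2 mice in Mbp. The part of oligodendrocytes in the sterol values was not tested either.

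**Figure D4:**
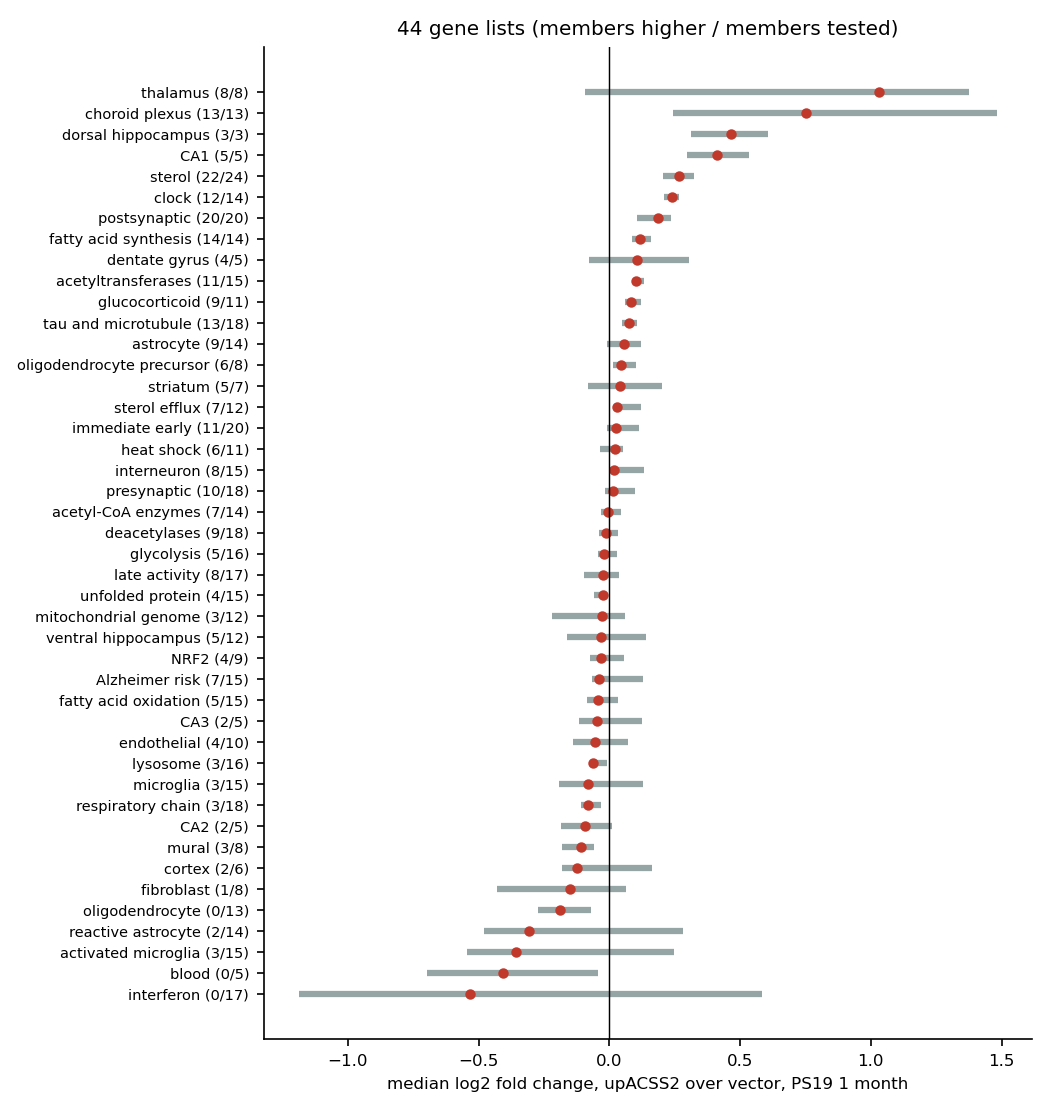
Median log2 fold change of upACSS2 over vector at 1 month for 44 gene lists (red points), with members above 0 over members tested in brackets, and grey bars for the range of the median when each library of the table is left out in turn. The sterol bar runs from 0.20 to 0.32, whereas the thalamus and interferon bars cross 0.

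Immune lists lay below 0, and their direction turned when vector replicate 5 was left out. Interferon-stimulated genes, the antiviral program, had 0 of 17 above 0 with a median of -0.53, and without vector replicate 5 they had 16 of 17 above 0 and a median of 0.58. Ifitm3, a membrane protein that restricts virus entry, stood at 4.07, 14.9, 6.57, 6.97 and 24.4 CPM with upACSS2 and at 8.16, 18.7, 6.93, 5.31 and 56.8 CPM with vector (-0.72 ± 0.58). Vector replicate 5 was the highest and upACSS2 replicate 5 the next. Genes of activated microglia had 3 of 15 above 0 (median -0.36), and 12 of 15 (median 0.25) without vector replicate 5. Reactive astrocyte genes had 2 of 14 above 0 (median -0.31), with a median of 0.28 without that mouse. Leaving out other single libraries kept these 3 medians below 0 but moved them, to between -1.19 (without upACSS2 replicate 5) and -0.32 (without upACSS2 replicate 1) for interferon genes. For activated microglia they lay between -0.55 (without vector replicate 4) and -0.20 (without vector replicate 2), and for reactive astrocytes the lowest was -0.48 (without upACSS2 replicate 5). Homeostatic microglia markers had 3 of 15 above 0 (median -0.08), and 13 of 15 (median 0.13) without vector replicate 5. Astrocyte markers had 9 of 14 above 0 (median 0.06), and 7 of 14 (median -0.01) without upACSS2 replicate 3.

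Genes of the tau list, which holds tau kinases and microtubule proteins, had 13 of 18 above 0 with a median of 0.08, which was 0.05 without upACSS2 replicate 3 and 0.05 without vector replicate 2. Unadjusted p under 0.05 was reached by Mark3 (0.12 ± 0.05) and Mark4 (0.31 ± 0.14), kinases that phosphorylate tau at its microtubule-binding repeats. Mark4 was 99.5, 94.7, 119, 102 and 77.1 CPM with upACSS2 and 84.0, 69.8, 92.7, 70.1 and 80.8 CPM with vector. All upACSS2 mice but replicate 5 were above the vector range. Nuclear genes of the respiratory chain had 3 of 18 above 0 (median -0.08, and -0.03 without upACSS2 replicate 1), with a median exon length of 2593 bases, and the unadjusted p of Cox5a (-0.18 ± 0.08) was the lowest. Lists of glycolysis (median -0.02), the unfolded protein response (-0.03), heat shock (0.02), lysosome (-0.06), antioxidant (-0.03) and Alzheimer risk genes (-0.04) had medians within 0.1 of 0.

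Of the 15850 genes, 75 were higher without overlap between the groups (0.473%) and 55 lower (0.347%), and none of them was called. The 10 with the lowest unadjusted p in each direction that met the expression and naming rule differed by small amounts. Gpatch2, a G-patch protein, stood at 19.9, 19.5, 20.1, 22.2 and 18.8 CPM with upACSS2 and at 16.8, 16.9, 16.2, 17.9 and 17.8 CPM with vector (0.23 ± 0.07, unadjusted p 0.00239, edgeR adjusted p 0.964). Creb3l2, an endoplasmic reticulum transcription factor of the secretory pathway, stood at 20.2, 14.2, 15.7, 17.6 and 16.3 CPM against 12.2, 13.7, 13.8, 11.6 and 11.5 CPM (0.42 ± 0.12). Clcn6, an endosomal chloride transporter, was at 108 to 121 CPM against 81.2 to 96.8 CPM (0.33 ± 0.11).

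The others in the higher direction were Zfp235 (0.29 ± 0.09) and Zfp592 (0.29 ± 0.09), zinc finger genes, Samd5 (0.45 ± 0.14), Sp9 (0.41 ± 0.13), a transcription factor of GABAergic neurons, Kctd21 (0.32 ± 0.10), Hsd17b7 and Cox15 (0.21 ± 0.07), an enzyme of heme A synthesis. In the lower direction, Sncg, the gene of gamma-synuclein, stood at 1.36, 1.83, 1.37, 2.08 and 2.41 CPM with upACSS2 and at 3.57, 2.49, 2.92, 3.27 and 6.35 CPM with vector (-1.01 ± 0.39). Vector replicate 5 was apart from the rest, and without it the log2 fold change was -0.73. Aurkaip1, a mitochondrial ribosome protein, was at 43.3 to 49.6 CPM against 50.1 to 60.2 CPM (-0.24 ± 0.10). Mrps10 (-0.23 ± 0.09), of the same ribosome, Mesd (-0.17 ± 0.05), a chaperone of lipoprotein receptors, Slc16a11 (-0.74 ± 0.24), Sntg2 (-0.66 ± 0.25), Cwf19l2 (-0.29 ± 0.11), Aoc2 (-0.49 ± 0.19), Trmt6 (-0.21 ± 0.08), a tRNA methyltransferase subunit, and Zswim7 (-0.46 ± 0.19) made up the rest. None of the 20 had groups apart at 6 months, when 1.31% of all genes were higher and 1.19% lower without overlap.

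**Figure D5:**
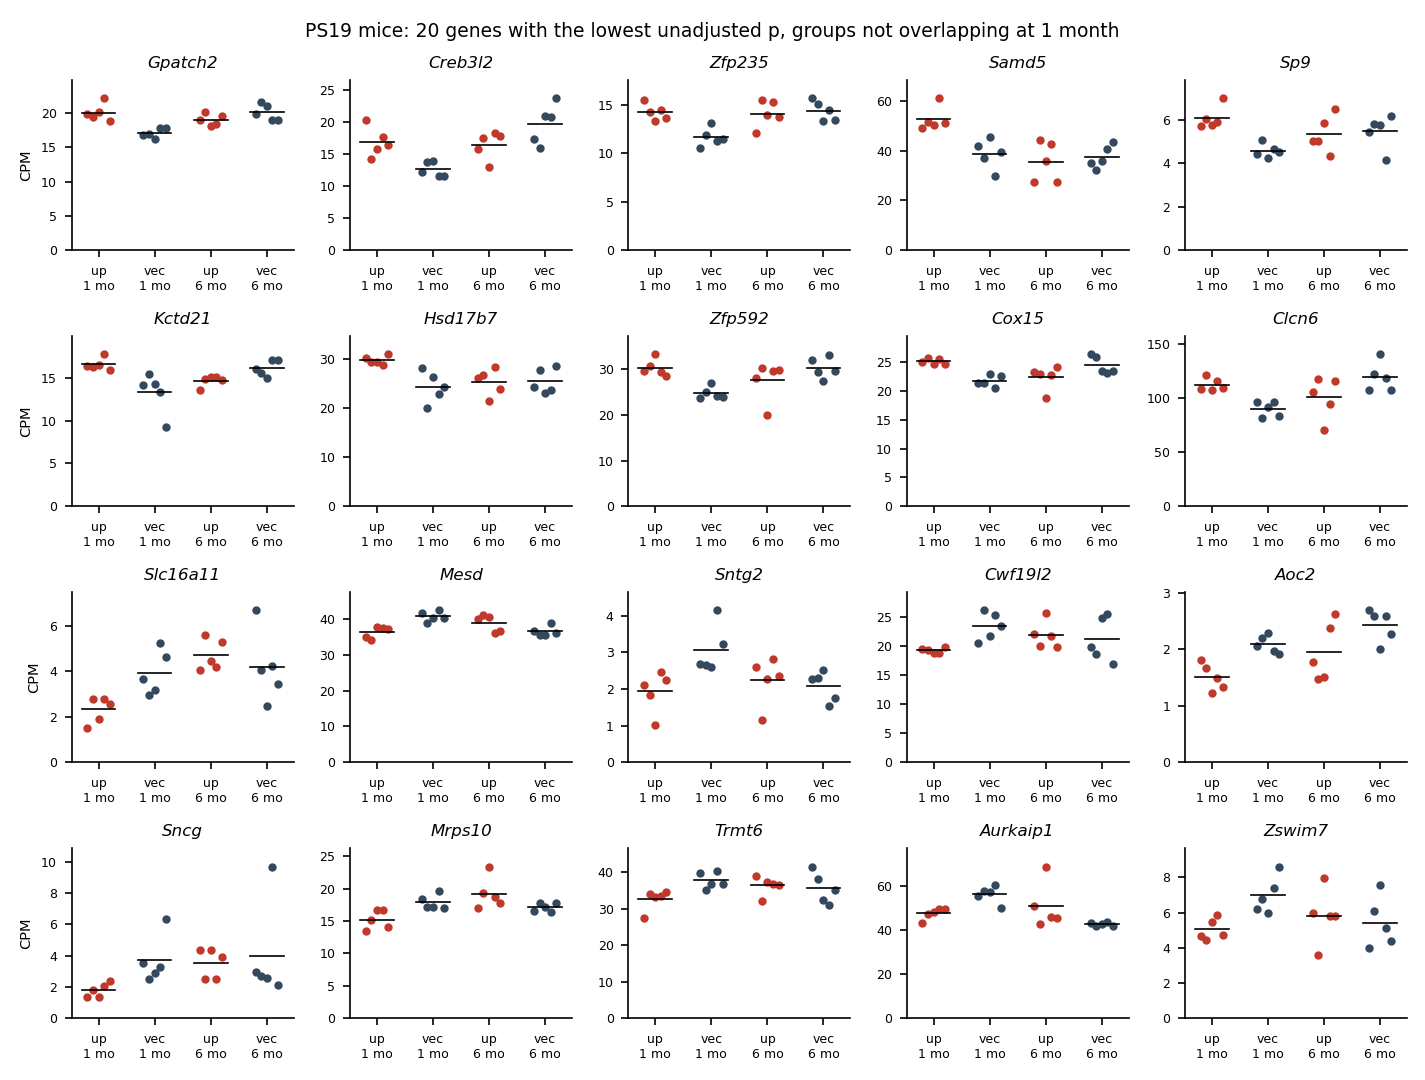
CPM of the 20 genes with the lowest unadjusted p among those without overlap at 1 month, in each PS19 mouse with upACSS2 (up, red) and vector (vec, dark) at 1 and 6 months, with lines at group means. The separation at 1 month is how the genes were chosen, and the 6-month groups of each overlap.

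Outside that rule, 3 genes were picked after their values were seen. H2-Ea, an MHC class II gene that the C57BL/6 strain is known not to make, was at 0.302, 0.0874, 0.342, 2.08 and 0.156 CPM with upACSS2 and at 4.44, 14.3, 6.36, 0 and 94.3 CPM with vector. Rps18-ps6, a ribosomal protein pseudogene, was at 9.65, 0.0874, 0.205, 0.586 and 0.389 CPM against 11.2, 13.3, 13.4, 0.582 and 25.9 CPM. Vector replicate 4 was low in both genes, as were upACSS2 replicates 2, 3 and 5. UpACSS2 replicate 4 was near vector replicate 4 in Rps18-ps6 (0.586 against 0.582 CPM). In H2-Ea it was at 2.08 CPM, below every vector mouse but replicate 4. UpACSS2 replicate 1 was low in H2-Ea only. Gm6969 was at 7.24, 5.24, 0.889, 7.03 and 0.467 CPM with upACSS2 and at 0.174 to 0.453 CPM with vector. In the 10-month C57BL6 mice Rps18-ps6 was at 0 to 0.369 CPM, and in the 10 PS19 mice at 6 months at 9.95 to 37.65 CPM. What sets these levels was not tested.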

How the data were processed

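Per the labels, RNA of the hippocampus was extracted with Trizol and a column kit, and total RNA libraries were made from 130 ng. The submitters' processing notes name STAR, featureCounts, HTSeq, DESeq2 and mm10, without roles or versions. The deposited values used were the authors' raw counts of reads per gene, with no normalization. Whether strand was used in counting is not given in the sources used here, so overlapping genes may share reads.

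From these counts, genes with low values were removed by edgeR's filter, libraries were scaled by TMM, and 4 groups of PS19 mice (20 libraries, 1 and 6 months) were fitted together with edgeR's quasi-likelihood test (edgeR 4.0.16, limma 3.58.1, R 4.3.3), so that they share 1 estimate of spread. The 11 libraries of 10-month mice were fitted apart. P-values were adjusted by Benjamini-Hochberg over all genes, with a threshold of 0.05. The same fit was tested on simulated data. DESeq2 1.42.0 was an alternative, as were other scalings, filters, models and leaving out each library.

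Named genes were Acss2, Mapt, Prnp, the sterol and acetyl-CoA members, the most abundant member and up to 3 with the lowest unadjusted p of each list, and the 10 lowest unadjusted p-values in each direction among genes with a symbol, no less than 1 in average log2 CPM, and no overlap between groups. Members and lists were chosen with earlier results of these data known. Promoters are RefSeq's, in GRCm38.p6. Some members of the lists are not reported here by name, but are counted in the lists.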

Additional observations from a re-analysis of the deposited data

Results flagged for a closer look

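In 9 of 134 sets of 5 mice, 1 mouse stood apart from the other 4 by Dixon's criterion, where chance flags about 1 in 20 sets, or 6.7 here. Acss2 was 66.34 CPM in vector replicate 1, against 51.5 to 53.14 in the other vector mice. Samd5 was 61.07 CPM in upACSS2 replicate 4, against 49.01 to 51.56. Sp9 was 7.004 CPM in upACSS2 replicate 5, against 5.731 to 6.03. Sncg was 6.349 CPM in vector replicate 5, against 2.492 to 3.567. Trmt6 was 27.6 CPM in upACSS2 replicate 1, against 33.24 to 34.55.

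The other 4 were means of log2 CPM over a list. Genes of the mitochondrial genome averaged 8.679 in upACSS2 replicate 3, against 7.813 to 7.979. Thalamic markers averaged 5.591 in upACSS2 replicate 4, against 2.525 to 3.022. Cortical layer markers averaged 4.983 in vector replicate 4, against 3.494 to 3.791. Antioxidant genes controlled by NRF2 averaged 5.306 in upACSS2 replicate 4, against 5.08 to 5.137 in the other 4.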

How the results depend on the processing

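The count of genes called at 1 month was 0 with edgeR and 1 with DESeq2, 1 with no filter on low counts and 1 without upACSS2 replicates 3 and 4 together (chosen after seeing the data), Acss2 each time, and 0 to 2 with each library left out (Acss2 and Rps18-ps6 without upACSS2 replicate 1). The adjusted p of Acss2 ran from 0.0001805 to 1. Its difference of 581 CPM ran from 373 (without upACSS2 replicate 5) to 725 (without upACSS2 replicate 4), and without any 1 vector mouse the exact permutation p was 0.0952 to 0.103. The groups are then of unequal size, and splits with the high mice in the smaller group give larger mean differences than the observed one. These p-values therefore cannot be set against the 0.0159 of all 10 mice, and do not show dependence on a vector mouse. At 6 months DESeq2 called 135 genes against 0, leaving out vector replicates 4 and 5 of the 1-month group gave 3 (Dusp11, Snhg11 and A330023F24Rik), and leaving out single libraries gave 0 to 78 (78 without upACSS2 replicate 4 of the 6-month group). DESeq2 called 3 genes in the test of the difference (Zscan26, Gm6969 and Pcdhgb1) and 4 at 10 months (Srp19, Galnt6, Ppp1r16b and Klhl11), against 0 each. These genes are named only because they were called there. The labels do not say that the replicate numbers pair the mice. The deviations of same-numbered mice correlated at 0.02, 0.08, 0.11, 0.14 and 0.31, not all over 0.1, and 2 of 5 upACSS2 libraries correlated best with their own number, so the numbers were not taken as pairs. With the replicate block 0 genes were called at 1 month, 0 at 6 months, 0 in the difference and 0 at 10 months, and 21 of 44 list medians were above 0. Of 212 named genes, 164 kept their sign in each of 29 settings. Many of these genes were chosen for low p-values in these data, among them the 20 without overlap, of which 0 changed sign. Settings that leave out a 6-month library also take no mouse out of the 1-month comparison. The count is therefore no test of the direction of these genes. Of 44 list medians, 28 changed sign in at least 1 setting. Depth limits the data most in upACSS2 replicate 1, with 6910945 counts.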
